A study of Mus musculus with 8 samples.

Results

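Pseudogene transcripts were examined in the poly-A RNA-seq of a mouse hepatic endothelial cell line whose labelled cell type is the sinusoidal endothelial cell of the liver. The members were all isoforms whose annotated biotype ended in pseudogene, 10609 of the 122968 isoforms in the deposited table of normalized counts. Of these, 7491 belonged to the processed class, 2654 to the unprocessed class and 464 to other biotypes (immunoglobulin, T cell receptor, polymorphic, unitary, translated processed and plain pseudogene). The data held 8 libraries, 4 from wild-type LEC, labelled untreated, and 4 from siL-DHX15-LEC, in which DHX15, a helicase that acts on the spliceosome, was silenced. All cells were primary C57BL/6 hepatic endothelial cells immortalized with SV40. In siL-DHX15-LEC a lentiviral SMARTvector with the 3G Tet-On system carried an shRNA against DHX15 that doxycycline induces. No group with a vector and doxycycline but without silencing was analysed, so vector, drug and silencing cannot be told apart. The conditions also ran on different flow cell lanes, so that these cannot be told apart either. The study describes the samples of a condition as biologically independent, while the labels name no separate cultures.

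A processed pseudogene is a copy of a spliced messenger RNA that reverse transcription has put back into the genome, usually without introns and without the promoter of its parent gene. An unprocessed pseudogene arises by duplication of genomic DNA and can keep the exons and introns of its parent. Abundant housekeeping transcripts, such as those of ribosomal proteins and glycolytic enzymes, are known to have left many processed copies in mammalian genomes. Fragments of mitochondrial DNA inserted into nuclear chromosomes are also annotated as pseudogenes. A read from a young copy can be identical to a read from its parent, and the quantification used by the study, RSEM, divides such reads between the transcripts they fit. The count of a near-identical copy is therefore an estimated division of reads and not a direct observation of that locus.

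A copy and its parent are shown side by side for 6 pairs of 120 bases each, of which the fifth has no differing base. They are stretches of the coding sequence of the parent and the matching stretch of the pseudogene, printed in transcript direction from GENCODE M21 (GRCm38), with capitals at the bases that differ within a pair. In each pair the ungapped stretch with the most differing bases was chosen, so it can show more differences than is typical of the copy. Over the whole copy, identity to the parent was 96.7% for Gm6548 and 90.8% for Gm5345.
The first pair is Gm29216, at chr1:24616078-24616197 on the minus strand, and mt-Co1, at chrM:6381-6500 on the plus strand, shown because the copy passed the test and the gene did not.
Gm29216: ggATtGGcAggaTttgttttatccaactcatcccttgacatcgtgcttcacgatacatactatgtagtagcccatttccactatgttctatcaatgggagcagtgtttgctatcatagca
mt-Co1: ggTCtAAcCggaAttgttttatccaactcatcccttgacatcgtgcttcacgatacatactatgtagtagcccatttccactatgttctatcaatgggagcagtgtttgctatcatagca
The copy and the gene differed at 6 bases, all within the first 13 bases of Gm29216, and were identical over the next 107. The local alignment began at base 10 of Gm29216, so the bases before it were paired by extending the alignment.
The second pair is Gm28438, at chr1:24613000-24613119 on the minus strand, and mt-Nd3, at chrM:9459-9578 on the plus strand, which both passed the test.
Gm28438: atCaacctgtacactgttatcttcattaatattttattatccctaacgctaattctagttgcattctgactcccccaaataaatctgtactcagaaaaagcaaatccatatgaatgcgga
mt-Nd3: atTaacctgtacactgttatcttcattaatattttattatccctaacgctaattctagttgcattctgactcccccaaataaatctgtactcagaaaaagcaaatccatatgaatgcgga
They differed at 1 base, T3C counted from the first base of mt-Nd3.
The third pair is Gm6548, at chr17:78850884-78851003 on the minus strand, and Eef1a1, between chr9:78478829-78479047 on the minus strand, shown because most of the copy can be told from its parent.
Gm6548: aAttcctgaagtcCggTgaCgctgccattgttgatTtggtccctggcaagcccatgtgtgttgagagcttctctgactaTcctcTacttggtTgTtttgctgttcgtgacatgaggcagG
Eef1a1: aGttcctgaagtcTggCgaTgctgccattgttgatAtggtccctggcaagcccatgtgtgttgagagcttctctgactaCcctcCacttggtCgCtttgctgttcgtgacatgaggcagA
The stretch held 10 differences, the first of them G1296A counted from the first base of the Eef1a1 transcript. The bases of Eef1a1 crossed an exon junction, whereas those of Gm6548 were contiguous in the genome.
The fourth pair is Gm5345, at chr8:40853866-40853985 on the minus strand, and Gapdh, between chr6:125162073-125162302 on the minus strand, shown because the copy rose and shared almost no read-length window with any other gene.
Gm5345: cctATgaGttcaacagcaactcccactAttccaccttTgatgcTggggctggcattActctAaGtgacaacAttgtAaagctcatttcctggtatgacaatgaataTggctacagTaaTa
Gapdh: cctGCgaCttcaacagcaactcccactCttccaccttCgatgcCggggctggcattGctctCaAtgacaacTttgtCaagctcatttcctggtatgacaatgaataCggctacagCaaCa
This stretch held 14 differences.
The fifth pair is Rpl15-ps3, at chr9:22186102-22186221 on the minus strand, and Rpl15, at chr14:18270331-18270450 on the minus strand, shown because the copy fell, the parent rose and no base told them apart.
Rpl15-ps3: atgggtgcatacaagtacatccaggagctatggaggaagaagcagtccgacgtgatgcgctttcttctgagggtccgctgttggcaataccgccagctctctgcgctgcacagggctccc
Rpl15: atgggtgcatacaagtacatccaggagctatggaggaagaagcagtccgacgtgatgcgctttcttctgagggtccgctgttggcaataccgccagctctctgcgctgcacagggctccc
No capital appears, since the pair had 0 differences in this stretch.
The sixth pair is Gm12183, at chr11:48752482-48752601 on the minus strand, and Ddx5, between chr11:106782677-106784143 on the minus strand, shown as a copy that fell together with its parent.
Gm12183: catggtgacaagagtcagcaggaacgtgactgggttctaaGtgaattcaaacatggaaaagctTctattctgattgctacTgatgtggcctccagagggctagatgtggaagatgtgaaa
Ddx5: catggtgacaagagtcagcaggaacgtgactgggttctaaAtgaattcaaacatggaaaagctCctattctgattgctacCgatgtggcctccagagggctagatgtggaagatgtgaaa
The stretch held 3 differences, A1370G, C1393T and C1410T counted from the first base of the Ddx5 transcript.

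The libraries held 77335734 to 152045693 reads recovered from the normalized counts. Dhx15, the silenced gene at chr5:52150203-52190514, had 7956 to 10051 normalized counts in the siL-DHX15-LEC libraries and 26430 to 28006 in those of wild-type LEC (log2 change of -1.61, SE 0.0592, adjusted p = 3.32e-08, limma). Of 10 endothelial markers, 5 reached a mean of 10 normalized counts in a condition, Cdh5 stayed at or below 4.73 and Emcn was at 0 in all libraries. Those 5 were Flt1 (means of 1507 in siL-DHX15-LEC and 1716 in wild-type LEC), Kdr (776 and 746), Eng (322 and 392), Pecam1 (37.0 and 25.2) and Vwf (14.9 and 12.7). Of 8 sinusoidal markers 3 reached this mean, Stab1 (139 and 163), Oit3 (93.6 and 101) and Mrc1 (31.5 and 84.0). Lyve1 was at or below 2.6 and Clec4g at or below 0.87, so that most of the sinusoidal markers went against the label. The endothelial markers summed to 2597 to 2761 normalized counts in siL-DHX15-LEC and 2839 to 3044 in wild-type LEC, and the sinusoidal markers to 255 to 324 and 339 to 397. Some markers of other cell types were present in both conditions. The 4 cholangiocyte markers summed to 51585 to 57435 normalized counts in siL-DHX15-LEC and 36521 to 42405 in wild-type LEC, and the 6 mesothelial and stellate markers to 31595 to 34596 and 35770 to 38166. Most of the cholangiocyte sum was Krt19, at means of 49669 and 33181. Epcam was at 99.0 and 89.2 and Krt7 at 64.7 and 41.9, while Sox9 went the other way, at 4958 and 5904. Of the mesothelial and stellate markers, Msln (22913 and 23374), Upk3b (4704 and 7091) and Wt1 (3956 and 5047) had lower means in siL-DHX15-LEC. Des (609 and 490) and Pdgfrb (1157 and 1007) had higher means, and Lrat was at 0.22 and 0.26. The 5 macrophage markers summed to 490 to 508 and 521 to 620. The 9 hepatocyte markers summed to 5101 to 5904 and 7315 to 7959, most of it Trf, at means of 5493 and 6582. Alb, the albumin gene, had a mean of 0.473 in siL-DHX15-LEC and 560 in wild-type LEC. Ttr, Serpina1a, Fga, Mup7 and Mup20 had means of 0 in siL-DHX15-LEC and of 35.9 to 152 in wild-type LEC. The part of these cells in the results was not tested. In bulk samples, fewer cells of a type and less RNA per cell cannot be told apart.

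A smaller share of pseudogene isoforms than of all isoforms passed the test between the conditions. Of the 10609 members, 6393 had 0 normalized counts in every library, which at this depth allows up to 3 reads a library (2.38 to 5.09 normalized counts, counting error only). Another 3099 were detected but stayed under the mean of 10 normalized counts asked of every isoform, and 1117 were tested. At an adjusted p of 0.05 (limma on log2 of the normalized count + 1, adjusted over all 50198 isoforms tested), 34 members changed, 7 higher and 27 lower in siL-DHX15-LEC. This was 3.04% of the members tested, against 10.4% of all isoforms. Over all isoforms, 6.61% were higher and 3.83% lower. At an unadjusted p of 0.05, 172 members passed, and 12729 of all isoforms. With isoforms summed per gene, 155 of 1170 genes with a pseudogene isoform were called, 23 higher and 132 lower (13.2%, against 33.2% of all genes). The conditions did not overlap in 145 members, where 18.1% of all isoforms did not overlap. The median log2 fold change was -0.21 over the members tested and -0.018 over all isoforms. edgeR on the recovered reads called 6 members higher and 27 lower, against 10.3% of all isoforms (6.54% higher and 3.77% lower). DESeq2 called 11 members higher and 60 lower, against 16.1% of all isoforms (9.68% higher and 6.39% lower). Rescaling to equal totals, which moved the median of all isoforms to -0.085, gave 4 members higher and 48 lower.

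The processed class held 1021 of the 1117 members tested and 25 of the 27 falls, so its share of the falls was close to its share of the members. Of its 1021 tested isoforms, 4 rose and 25 fell (2.84%, against 10.4% of all isoforms), with a median log2 fold change of -0.22. Most of them, 987, were annotated as a single exon. Their best alignment to a protein-coding transcript had a median identity of 98.3%, and their median level was 45.6 normalized counts. Of the 52 unprocessed isoforms tested, 2 rose and 0 fell (3.85%), with a median of 0.055. Only 18 of them had a single exon. Without the 9 copies of mitochondrial DNA, 43 unprocessed isoforms remained and none was called, with a median of 0.053. Of the 44 tested isoforms of other biotypes, 1 rose and 2 fell (6.82%). In each class the share called was below that of all isoforms. The difference between the classes was not tested.

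The level of the processed class was set apart by 1 library. Each isoform was centred on its mean log2 value over the 8 libraries, and the median was taken over the class. For the 1021 processed isoforms this median was 0.41 in wild-type replicate 1 and 0.049, 0.047 and -0.020 in wild-type replicates 2, 3 and 4. In siL-DHX15-LEC replicates 1, 2, 3 and 4 it was -0.15, -0.013, -0.097 and -0.12. The conditions therefore overlapped, and wild-type replicate 1 stood above all others. For the 52 unprocessed isoforms the median was -0.12 in wild-type replicate 1, the lowest of the 8 libraries, and 0.068, 0.0071 and 0.071 in the other wild-type libraries. Wild-type replicate 1 was the highest of the 8 libraries for 57.7% of the processed isoforms (589), for 15.4% of the unprocessed isoforms and for 15.8% of all isoforms. The median over all isoforms was 0.018 in this library and 0.011 to 0.024 over the 8 libraries. The deposited counts were divided by size factors, which bring the typical isoform near the same level in every library. This median therefore cannot show whether isoforms in general were raised in wild-type replicate 1. For 10398 retained introns the median was -0.0034 in wild-type replicate 1, against 0.088, 0.11 and 0.069 in wild-type replicates 2, 3 and 4. For 650 lincRNA isoforms it was 0.0077, against 0.046, 0.060 and 0.060. In both groups wild-type replicate 1 was thus the lowest of the wild-type libraries. The processed isoforms with at least 90% of unique windows, 161 in number, had a median of 0.35 in this library, as high as the 0.34 of the 95 isoforms with none. Without wild-type replicate 1, the median log2 fold change of the members was -0.12, and 23 members were called, 7 higher and 16 lower, against 8.97% of all isoforms. Of the 34 calls, 18 were kept without it (13 falls and 5 rises), and 7 were kept whichever library was left out.

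**Figure D1:**
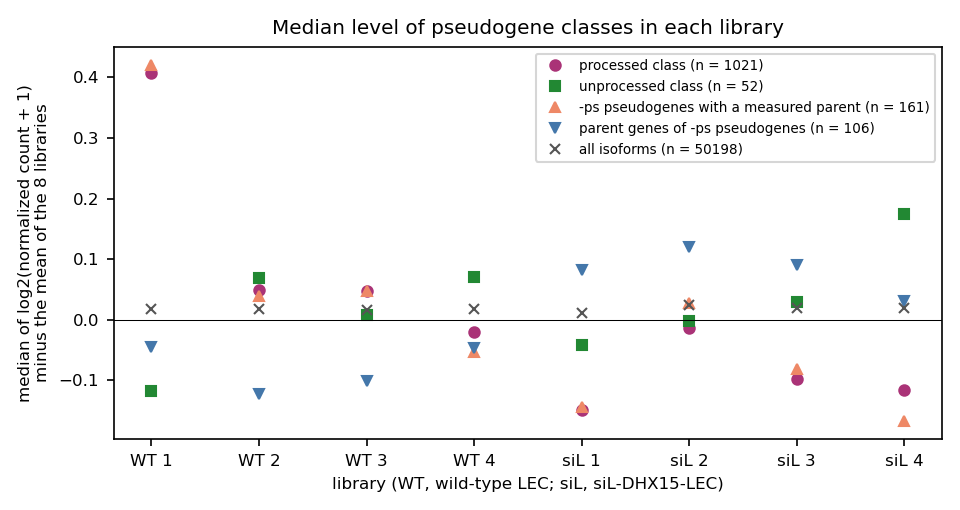
Median of log2(normalized count + 1), centred on each isoform's or gene's mean over the 8 libraries, for 4 groups and for all isoforms (vertical axis, log2 units) in each library (horizontal axis; WT, wild-type LEC; siL, siL-DHX15-LEC; 1 point per library and group). Processed pseudogenes and those named -ps stood at 0.41 and 0.42 in wild-type replicate 1. All isoforms together stayed near 0 in every library, which the scaling of the counts brings about.

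Pseudogene transcripts took 0.927% ± 0.107 of all normalized counts in siL-DHX15-LEC and 0.932% ± 0.0376 in wild-type LEC (SD, n = 4 each). The processed class took 0.178% ± 0.00735 and 0.207% ± 0.0266, and the unprocessed class 0.742% ± 0.110 and 0.717% ± 0.0637. These shares were not tested. Most of the total was assigned to a single locus, whose reads mostly fit mitochondrial genes as well, so their origin cannot be told. The 7 chromosome 1 copies of mitochondrial DNA held 75.9% of all pseudogene counts, and the 102 tested members without a unique window held 78.0%.

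This locus is an insertion of mitochondrial DNA into the nuclear genome, annotated as unprocessed pseudogenes on the minus strand between chr1:24611535-24616197. Its 7 members run in mitochondrial gene order and copy genes of the respiratory chain and of ATP synthase. Gm29216 copies mt-Co1, Gm28661 copies mt-Co2, Gm10925 copies mt-Atp6, Gm28437 copies mt-Co3, Gm28438 copies mt-Nd3, Gm10222 copies mt-Nd4l and Gm28439 copies mt-Nd4. Co1, Co2 and Co3 are subunits of cytochrome c oxidase (complex IV), the Nd genes encode subunits of complex I, and Atp6 is a subunit of ATP synthase. All 9 tested copies of mitochondrial DNA, these and a pair on chromosome 2, are described here, of which 2 rose and 0 fell (22.2%, against 10.4% of all isoforms). Among the 13 mitochondrially encoded protein genes tested, 1 rose, mt-Nd3, and 0 fell, where 33.2% of all genes were called (18.4% higher, 14.8% lower).

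Gm29216 was the member with the smallest adjusted p. It had 34991, 35398, 36617 and 39039 normalized counts in the siL-DHX15-LEC libraries and 22185, 22125, 22877 and 23845 in the wild-type LEC libraries. The 4 siL-DHX15-LEC libraries were all above the 4 wild-type libraries (log2 fold change 0.68, SE 0.0411, adjusted p = 0.000228, limma), and the value was 0.67 (adjusted p = 0.00142) without wild-type replicate 1. mt-Co1 itself had 751500 to 995972 normalized counts in siL-DHX15-LEC and 792489 to 937672 in wild-type LEC, which overlapped (log2 fold change -0.0091, SE 0.0809, adjusted p = 0.941). The sum of Gm29216 and mt-Co1 overlapped as well, with a log2 difference of 0.013. Per kilobase of transcript, Gm29216 took 11.6% ± 0.852 of the level of copy and gene together in siL-DHX15-LEC and 7.54% ± 0.495 in wild-type LEC (SD, n = 4 each). Only 3.12% of its 76-base windows, the read length, were absent from the transcripts of every other gene.

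Gm28438 rose too. Its normalized counts were 27948, 31761, 31205 and 33270.0 in siL-DHX15-LEC and 24674, 20342, 21431 and 26176 in wild-type LEC, without overlap (log2 fold change 0.43, SE 0.0857, adjusted p = 0.0162, limma). Here the mitochondrial gene rose as well. mt-Nd3 had 7653, 8640.07, 7812 and 10712 normalized counts in siL-DHX15-LEC and 7388, 6628, 6076 and 7669 in wild-type LEC (log2 change of 0.32, SE 0.101, adjusted p = 0.0300), with wild-type replicate 4 above siL-DHX15-LEC replicate 1. The sum of the copy and the gene did not overlap between conditions, at 35600 to 43982 and 26970 to 33845 normalized counts. Per kilobase, the copy took 78.3% ± 1.81 of the pair in siL-DHX15-LEC and 77.1% ± 1.06 in wild-type LEC.

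The other copies at this locus did not pass the test. Gm10925 was assigned the highest mean count of any pseudogene over the 8 libraries, with 318858 ± 72385 normalized counts in siL-DHX15-LEC and 281732 ± 29885 in wild-type LEC (SD, n = 4 each; adjusted p = 0.546). Gm28661 had 294857 ± 32028 and 283467 ± 27264 (adjusted p = 0.743), and Gm28437 had 242509 ± 28896 and 238602 ± 17665 (adjusted p = 0.914). For each of these the copy and the mitochondrial gene were identical over the whole length of the copy, no window was unique, and the counts were given almost entirely to the nuclear copy. Per kilobase, Gm10925 took 97.6% of its pair in siL-DHX15-LEC and 96.6% in wild-type LEC, Gm28661 98.0% and 98.6%, and Gm28437 97.4% and 97.0%. Gm28439, also identical to its gene over its length, was divided the other way. It was listed at 0 in siL-DHX15-LEC replicates 1, 3 and 4 and at 99.8 in replicate 2, and in wild-type LEC at 57.7, 102, 0 and 27.7, while mt-Nd4 had 140356 to 216574 normalized counts over all 8 libraries. Gm10222 lay between, with 45.5% ± 9.06 and 40.3% ± 1.16 of its pair per kilobase. Its siL-DHX15-LEC libraries ranged from 8802 to 14985 normalized counts, on both sides of the wild-type range of 10359 to 12857 (adjusted p = 0.764). Gm10222 and Gm28439 overlap on the same strand.

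The chromosome 2 copies were different enough to be told apart over most of their length. Gm13340, a copy of mt-Co1 at chr2:22588103-22589647 with 97.6% identity and 84.8% unique windows, had 625, 398, 515 and 738 normalized counts in siL-DHX15-LEC and 340.0, 718, 566 and 649 in wild-type LEC (adjusted p = 0.973). Gm13341, a copy of mt-Co2 at chr2:22587291-22587962 with 77.2% unique windows, had 67.9, 69.8, 87.8 and 104 against 90.7, 105, 81.4 and 90.9 (adjusted p = 0.584). Both overlapped between conditions, and both lie opposite to Myo3a.

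**Figure D2:**
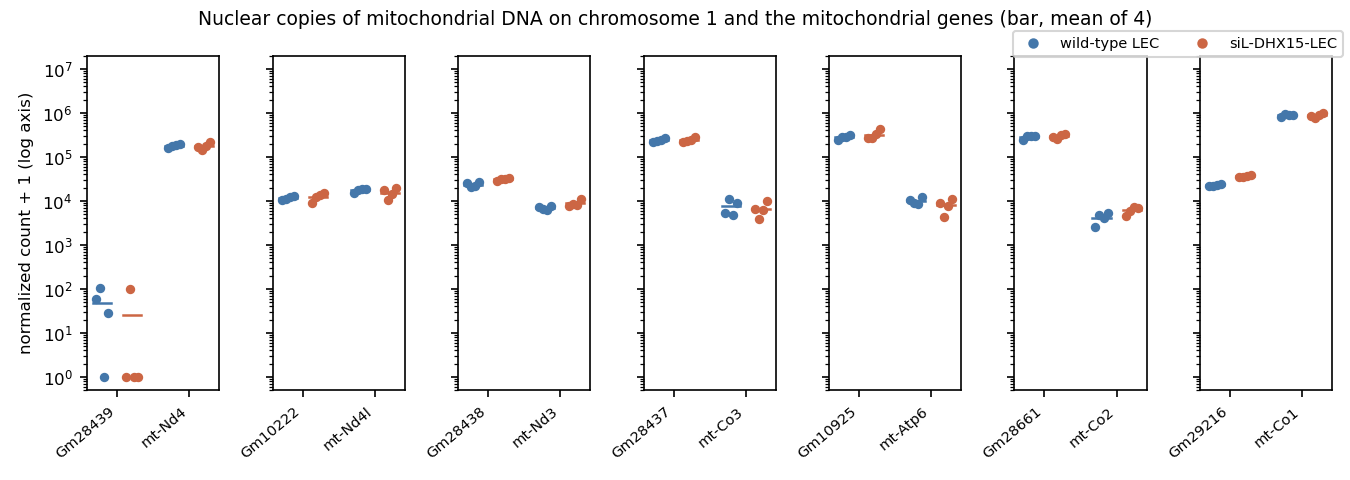
Normalized count + 1 (vertical axis, log scale) of the 7 nuclear copies of mitochondrial DNA on chromosome 1 and of the mitochondrial gene each copies, in 4 wild-type LEC and 4 siL-DHX15-LEC libraries (points; bars, means of 4). Gm29216 and Gm28438 were higher in every siL-DHX15-LEC library, while Gm28439 was at 0 in 4 of 8 libraries beside an abundant mt-Nd4.

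Outside the mitochondrial copies, none of the other 6 members among the 12 most abundant passed the test. 5830417I10Rik, an unprocessed pseudogene of 19 exons with no parent assigned, at chr3:88775216-88825587, had 14088 to 14401 normalized counts in siL-DHX15-LEC and 13983 to 14651 in wild-type LEC (log2 fold change -0.0085, adjusted p = 0.874). Gm15500, identical to Rpl5 of the large ribosomal subunit, had 11896 to 13164 and 11008 to 14025 (adjusted p = 0.703), and Gm7536, identical to Rpl27a, had 6954 to 7661 and 6451 to 8044 (adjusted p = 0.584). Gm7336, a Gapdh copy, had 6364 to 7678 and 6488 to 8771 (adjusted p = 0.835). Mrip-ps, which aligned to Mprip, a myosin phosphatase interactor, had 4974 to 5610 and 4407 to 5479 (adjusted p = 0.329). Gm12715, which aligned to Actg1, the gene of cytoplasmic gamma-actin, had 3910, 5209, 4953 and 4770 in siL-DHX15-LEC and 7869, 5783, 6126 and 5559 in wild-type LEC. Its conditions did not overlap, but its adjusted p was 0.0664 in limma and 0.00574 in DESeq2, and wild-type replicate 1 was the highest. For Gm15500, Gm7536 and Gm7336 the parent genes rose, with log2 fold changes of 0.21, 0.23 and 0.30 for Rpl5, Rpl27a and Gapdh.

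The 7 members that rose were all without overlap between conditions. Beside Gm29216 and Gm28438, they were Gm5417, Gm5345, Gm7389, Gm7488 and Gm3244. Gm5345, a Gapdh copy of 90.8% identity at chr8:40853828-40855027, had 155, 146, 138 and 127 normalized counts in siL-DHX15-LEC and 102, 89.7, 98.2 and 86.6 in wild-type LEC (log2 change of 0.58, SE 0.119, adjusted p = 0.0181). It had 99.9% unique windows, the most of any member that rose, and Gapdh, the glycolytic enzyme, rose by 0.30 (SE 0.0493, adjusted p = 0.000923). Gm7389, an 85.7% unique copy of Xpot, which exports tRNA from the nucleus, had 1433, 1512, 1168 and 1154 against 824, 1073, 943 and 1033 (log2 fold change 0.44, adjusted p = 0.0483), and Xpot rose by 0.26 (adjusted p = 0.00202). Gm5417, a copy of the vitamin K epoxide reductase gene Vkorc1l1, had 88.3, 96.3, 80.8 and 94.6 against 48.4, 67.5, 56.4 and 60.6 (log2 fold change 0.63, adjusted p = 0.0342). It lies within Pacsin2 on the same strand, had 3.58% unique windows, and the value of Vkorc1l1 was -0.047 (adjusted p = 0.340).

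Gm3244 and Gm7488 had no unique window. Gm3244 also lies on the same strand as Mroh5. Gm3244, identical to Ndufb4, a complex I subunit, had 4007, 4172, 4069 and 4001 normalized counts in siL-DHX15-LEC and 3544, 3250, 3243 and 3674 in wild-type LEC (log2 change of 0.25, SE 0.051, adjusted p = 0.0184). Ndufb4 had fewer counts than its copy, 3478 to 3907 and 2778 to 3106, and rose by 0.29 (adjusted p = 0.00122). Gm7488, identical to Nudt21, a factor of mRNA cleavage and polyadenylation, had 2175, 2201, 2068 and 1981 against 1952, 1633, 1725 and 1790 (log2 fold change 0.25, adjusted p = 0.0472). The value of Nudt21 was 0.096 (adjusted p = 0.0514). Gm5417 and Gm7389 were no longer called without wild-type replicate 1 (adjusted p = 0.0638 and 0.0933), and Gm7389 had an adjusted p of 0.0539 in edgeR.

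The 27 falls ran from -0.40 to -1.25 on the log2 scale. Gm12481, identical to Serf2 over its length and without a unique window, fell most among those with a mean of at least 50. It had 404, 213, 205 and 154 normalized counts in siL-DHX15-LEC and 405, 580, 485 and 537 in wild-type LEC (log2 change of -1.12, SE 0.268, adjusted p = 0.0324). Its siL-DHX15-LEC replicate 1 and wild-type replicate 1 differed by less than 1 normalized count, so the separation was narrow, and the value of Serf2 was 0.058 (adjusted p = 0.219).

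Among the 10 largest falls, 3 copied the heat shock genes Hspb1 and Hsp90aa1, which also fell. Hsp25-ps1, a copy of Hspb1, the small heat shock protein also called Hsp25, had 40.8, 52.1, 57.9 and 46.4 normalized counts in siL-DHX15-LEC and 131, 74.6, 94.0 and 88.3 in wild-type LEC (log2 change of -0.94, SE 0.206, adjusted p = 0.0227). Hspb1 fell by 0.38 (adjusted p = 0.000227). Gm12346, a copy of the chaperone Hsp90aa1, had 402, 360.4, 469 and 604 against 721, 798, 796 and 692 (log2 fold change -0.74, SE 0.151, adjusted p = 0.0178). Gm5844, another Hsp90aa1 copy, had 102, 76.8, 114 and 120.2 against 161, 188, 188 and 138 (log2 fold change -0.71, adjusted p = 0.0357). Hsp90aa1 fell by 0.41 (adjusted p = 0.0269), and siL-DHX15-LEC replicate 4 was the highest of its condition for both copies and for the gene. Gm12346 shares its strand with Ssh2, and Gm5844 lost its call without wild-type replicate 1 (adjusted p = 0.0635).

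Another 3 of the 10 largest falls copied Srsf3, Papd4 and Syncrip, which also fell. Gm9761, a copy of the splicing factor Srsf3, had 136, 159, 166 and 138 normalized counts in siL-DHX15-LEC and 328, 217, 267 and 208 in wild-type LEC (log2 fold change -0.74, adjusted p = 0.0217), and Srsf3 fell by 0.26 (adjusted p = 0.00672). Gm15975, a copy of the cytoplasmic poly(A) polymerase gene Papd4, had 57.7, 41.5, 54.4 and 47.3 against 75.2, 88.9, 100.2 and 76.2 (log2 fold change -0.75, adjusted p = 0.0276). Gm6501, a copy of the RNA-binding protein gene Syncrip, had 45.8, 49.5, 50.9 and 49.2 against 77.3, 92.9, 66.8 and 73.6 (log2 fold change -0.65, adjusted p = 0.0315). Papd4 and Syncrip fell by 0.20 and 0.26. Gm12183, printed above beside the RNA helicase gene Ddx5, had a mean of 255 normalized counts and a log2 fold change of -0.62 (adjusted p = 0.0132), and Ddx5 fell by 0.19 (adjusted p = 0.00635). Gm12183 was outside the rule for named members and was chosen after its values were seen.

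For another 3 of the 10 largest falls the parent did not pass the test. Gm9816, a copy of the COP9 signalosome gene Gps1, had 158, 175, 150.1 and 168 normalized counts in siL-DHX15-LEC and 360, 250.1, 253 and 214 in wild-type LEC (log2 fold change -0.70, adjusted p = 0.0261). Gm12854, a copy of the calcium-binding protein gene S100a11, had 222, 283, 245 and 240.3 against 473, 332, 403 and 384 (log2 fold change -0.68, SE 0.126, adjusted p = 0.012). Gm10039, a copy of Atp5g1, which encodes subunit c of ATP synthase, had 98.5, 127, 117 and 102 against 210.2, 143, 156 and 183 (log2 fold change -0.63, adjusted p = 0.0359). All 3 had wild-type replicate 1 as the highest library, and without it Gm9816 and Gm12854 kept their calls (adjusted p = 0.0267 and 0.0241) while Gm10039 did not (0.071). The log2 fold changes of Gps1, S100a11 and Atp5g1 were -0.070, 0.039 and 0.075.

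Gm6548 was chosen after its values were seen, as the fall with the most unique sequence. This copy of Eef1a1, the elongation factor that brings aminoacyl-tRNA to the ribosome, had 93.6% unique windows. It had 402, 397, 395 and 429.5 normalized counts in siL-DHX15-LEC and 607, 608, 565 and 595 in wild-type LEC. The libraries of each condition lay close together and the conditions were far apart (log2 fold change -0.55, SE 0.0666, adjusted p = 0.00245), and the value was -0.54 without wild-type replicate 1 (adjusted p = 0.00803). Eef1a1 itself went the other way, with 1013930 to 1129430 normalized counts in siL-DHX15-LEC and 852528 to 941950 in wild-type LEC (log2 change of 0.29, SE 0.0522, adjusted p = 0.00165). Over all 27 falls, the aligned parent was called higher for 4, lower for 10 and not called for 13.

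**Figure D3:**
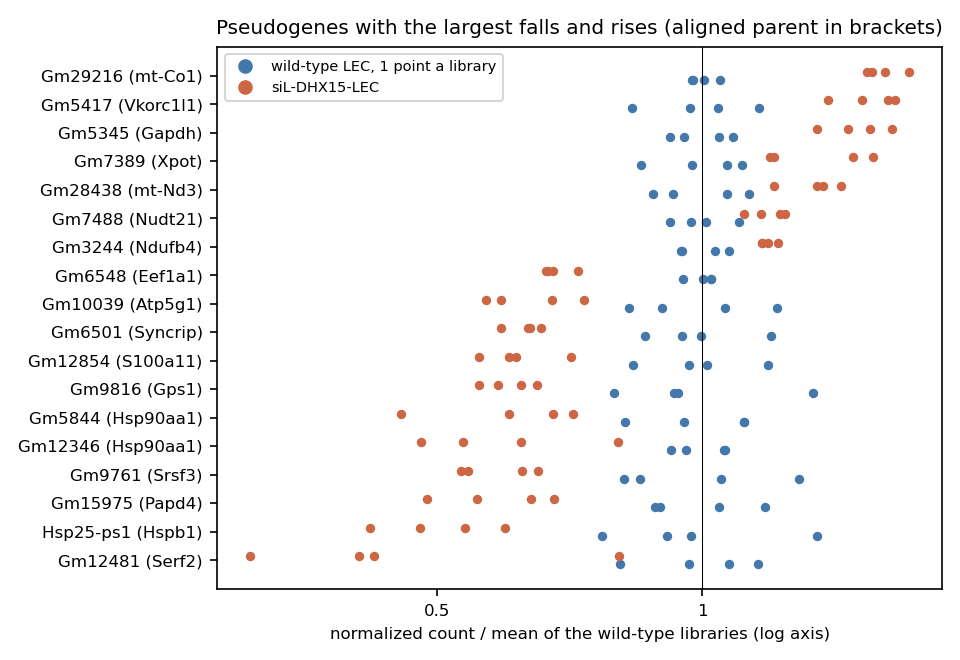
Normalized count of each library relative to the mean of the wild-type LEC libraries (horizontal axis, log scale) for the 10 largest falls, the 7 rises and Gm6548 (vertical axis, aligned parent in brackets; 1 point per library). The 10 falls and 7 rises were chosen among called members without overlap between the conditions, and Gm6548 was chosen after its values were seen. The smallest gap was that of Gm12481, at 404 and 405 normalized counts.

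The name of a pseudogene gives its parent where it ends in -ps. Of 185 tested isoforms with such a name, 0 rose and 6 fell (3.24%, against 10.4% of all isoforms), and the median of the 161 whose parent symbol was also measured was -0.19. The parent symbol of the other 24 was not in the table. The 106 distinct parent genes had a median log2 fold change of 0.17, against -0.0094 over all genes. Of them, 62 rose, 5 fell and 39 did not pass the test, so that 58.5% were higher where 18.4% of all genes were. Ribosomal protein genes made up 47 of the 106 parents and 42 of the 62 rises, with a median of 0.21. They were also the parents of 93 of the 161 copies, whose median was -0.16. The 58.5% therefore largely describes this family, and the other parents were not compared with all genes. The pseudogene had the smaller log2 fold change in 145 of the 161 pairs, and in 103 pairs it was negative while that of the parent was positive. Over these pairs Pearson's r was 0.28 and Spearman's rho 0.34, given as a description, since several pseudogenes share a parent and all pairs share the 8 libraries. Some pairs also repeat 1 measurement. Rpl35a-ps2, Rpl35a-ps3, Rpl35a-ps4 and Rpl35a-ps6 had the same mean, log2 fold change (0.088) and SE. So did Rps19-ps1 and Rps19-ps2 (-0.31). All of them were counted as separate pairs. The precision differed, with a median SE of 0.216 for the pseudogenes and 0.0437 for the parents.

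Per library, the parents and the copies had different patterns. The median centred log2 value of the 106 parents was 0.082, 0.12, 0.090 and 0.031 in siL-DHX15-LEC and -0.044, -0.12, -0.10 and -0.046 in wild-type LEC, without overlap. That of the 161 copies was -0.14, 0.027, -0.081 and -0.17 in siL-DHX15-LEC and 0.42, 0.039, 0.047 and -0.053 in wild-type LEC, with overlap. Without wild-type replicate 1, the median log2 fold change was -0.083 for the copies and 0.18 for the parents, and the copy was below its parent in 134 of 159 pairs. After rescaling to equal totals these medians were -0.25 and 0.10.

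**Figure D4:**
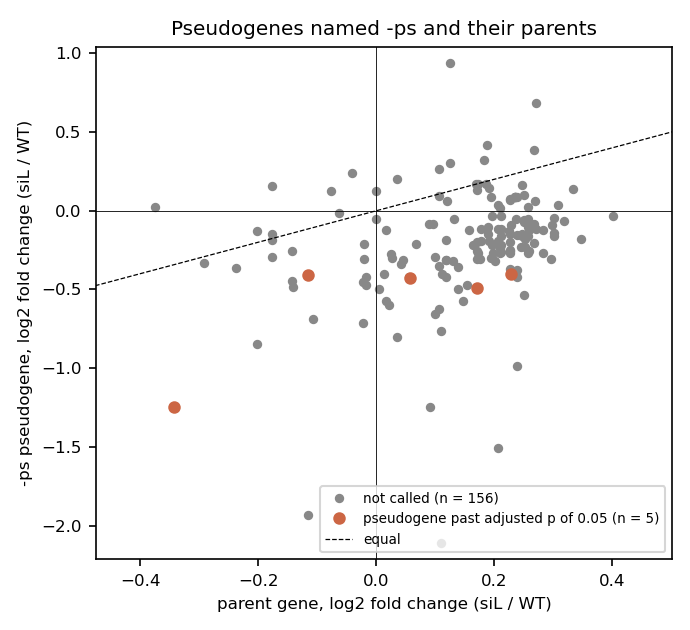
Log2 fold change (siL-DHX15-LEC over wild-type LEC) of 161 pseudogenes named -ps (vertical axis) against that of the parent gene in the name (horizontal axis), 1 point per pseudogene, with the dashed line at equal values. Of the points, 145 lay below the line, and the 5 coloured points are pseudogenes past an adjusted p of 0.05, all of them lower.

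The 10 most abundant -ps members with a measured parent copied 8 ribosomal protein genes, Tpt1, the translationally controlled tumor protein gene, and Pgam1, a glycolytic mutase. In every one of them wild-type replicate 1 was the highest of the 8 libraries. Rpl15-ps3, the copy printed above without a difference from Rpl15, was the one that fell. It had 1343, 1373, 1466 and 1510.0 normalized counts in siL-DHX15-LEC and 2321, 1686, 1812 and 1768 in wild-type LEC (log2 change of -0.40, SE 0.1, adjusted p = 0.0366), and it kept its call without wild-type replicate 1 (log2 fold change -0.30, adjusted p = 0.0265). Rpl15 rose by 0.23 (SE 0.0449, adjusted p = 0.00278), with 126331 to 140876 and 109097 to 119970 normalized counts.

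The other 9 did not pass the test, though 9 of 9 parents rose. Rps6-ps4 had 2805, 3133, 2738 and 2665 normalized counts in siL-DHX15-LEC and 4667, 2755, 2819 and 2778 in wild-type LEC, so that its log2 fold change of -0.16 (adjusted p = 0.585) became 0.024 without wild-type replicate 1. Rps23-ps1 did the same, with 1360.0, 1519, 1362 and 1270 against 2085, 1351, 1314 and 1325, and a log2 fold change of -0.11 (adjusted p = 0.678) that became 0.048. Rpl31-ps8 came nearest to the threshold, with 1029, 1298, 1168 and 1167 against 1786, 1423, 1356 and 1393 (log2 fold change -0.35, adjusted p = 0.0699, and 0.0127 in DESeq2). The log2 fold changes of the others were -0.11 for Rpl3-ps1, -0.27 for Rpsa-ps10, -0.12 for Rpl19-ps11, -0.19 for Tpt1-ps3, -0.31 for Pgam1-ps2 and -0.18 for Rpl10a-ps1. The rises of the 9 parents ran from 0.11 for Rpl31 to 0.35 for Rpl10a.

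Grouped by the parent that each tested pseudogene aligned to, the copies of ribosomal protein genes were the largest family. This family was set by symbol, mainly Rpl or Rps followed by a digit, so it can hold like-named genes that are not ribosomal proteins. Of 269 such copies, 0 rose and 4 fell, with a median log2 fold change of -0.15, while of the 110 genes with these symbols 73 rose and 6 fell, with a median of 0.19. The copies that fell were Rpl15-ps3, Rps13-ps2, Gm12191 (a copy of Rpl30) and Gm9794 (a copy of Rpl23), with log2 fold changes of -0.40, -0.49, -0.44 and -0.53. The last 3 of these were named after their values were seen. Copies of glycolytic genes numbered 91, of which 1 rose (Gm5345) and 0 fell, with a median of -0.097, while all 8 genes rose, with a median of 0.24. Copies of the listed translation factors (elongation factors, Eif1, Eif3 subunits, Eif4a1 and Eif5a) numbered 24, of which 0 rose and 1 fell (Gm6548), with a median of -0.16, while 13 of 19 genes rose and 0 fell, with a median of 0.18. Eif2s2, an initiation factor gene, was not on this list, and its copy Gm9892, named after its values were seen, was called lower (log2 change of -0.54, adjusted p = 0.0262). Of 20 copies of high mobility group and histone genes 0 were called, with a median of -0.16, and of the 8 genes 0 rose and 1 fell. In each of these 4 families the share of copies called was below the 10.4% of all isoforms. Over all processed isoforms with an aligned and measured parent, 862 of 997 had a smaller log2 fold change than the parent, of which there were 534 distinct genes.

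The calls were compared with how far a member can be told apart. Of the 1112 members found in GENCODE M21, 102 had no 76-base window that was absent from the transcripts of all other genes, and 8 of them were called, 2 higher and 6 lower. Members with under 50% unique windows numbered 479, of which 25 were called, and those with at least 50% numbered 633, of which 9 were called. Both shares were below the 10.4% of all isoforms called. Of 197 members with at least 90% unique windows, 2 were called, Gm5345 and Gm6548, and their median log2 fold change was -0.20. The median was -0.26 without a unique window, -0.083 with up to 10%, -0.22 from 10 to 50%, -0.22 from 50 to 90%, -0.22 above 90% and -0.19 with all windows unique, so the median was negative in every class. Levels differed along the same axis. The median level was 175 normalized counts without a unique window and 18.2 with all windows unique, and no member of the 75 in the last group was called. The part of sequence identity in the calls was not tested.

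**Figure D5:**
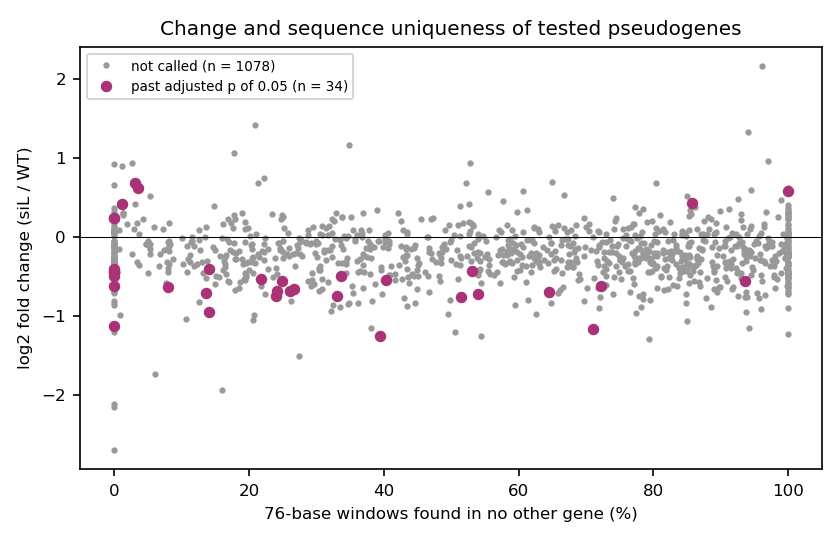
Log2 fold change (siL-DHX15-LEC over wild-type LEC, vertical axis) of the 1112 tested pseudogene isoforms found in GENCODE M21 against the percent of their 76-base windows found in no transcript of another gene (horizontal axis), 1 point per isoform. The 34 called isoforms (coloured) include 25 with under 50% unique windows and 2 with at least 90%.

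Of the 1112 members with a position, 209 overlapped another gene on the same strand, 215 overlapped one on the opposite strand only and 688 overlapped none. The median log2 fold change was -0.24 with a gene on the same strand, where 7 were called, and -0.21 with no overlapping gene, where 21 were called. Both shares were below the 10.4% of all isoforms called. Reads of a host gene on the same strand cannot be told from those of the pseudogene where the exons coincide. The library kit kept the strand.

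The remaining biotypes held few expressed members. Of 89 polymorphic pseudogenes, which are coding in some mouse strains and disabled in the reference strain, 8 were tested and 0 called. Of 26 unitary and 8 transcribed unitary pseudogenes, genes that lost their function without leaving a working copy, 1 was tested, Thap6-001, with a mean of 601 normalized counts and a log2 fold change of 0.090 that did not pass (adjusted p = 0.568). None of the immunoglobulin and T cell receptor pseudogenes was above 0 in any library. Of 32 tested isoforms with the plain biotype pseudogene, 1 rose, Gm5417, and 2 fell, Hsp25-ps1 and Ap3m1-ps (9.38%, against 10.4% of all isoforms). Ap3m1-ps, named after its values were seen, copies a subunit of the AP-3 adaptor complex and had the largest fall among the called members, from a low level (mean of 29.0 normalized counts, log2 fold change -1.25, SE 0.32, adjusted p = 0.0419), and Ap3m1 fell by 0.34 (adjusted p = 0.00628). The highest count of a member under the threshold on the mean was 34.0 normalized counts in a library.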

How the data were processed

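Poly-A RNA of 8 libraries was sequenced by the authors with a stranded kit and paired reads of 76 bases. The deposited signal values are isoform counts that the authors made with STAR 2.5.2a on GRCm38 and RSEM 1.2.28 on GENCODE M12, and divided by DESeq2 1.18 size factors. Except for large counts, which were not checked, 100% of nonzero values lay within 0.1 of a whole multiple of their library's step. Whole reads were recovered for all values by rounding to the nearest multiple. The deposited percent values of uniquely mapped and duplicate pairs were used only to describe the libraries.

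Isoforms averaging 10 or more normalized counts were tested with limma 3.58.1 (R 4.3.3) with a trend, on log2(normalized count + 1), so that fold changes of low isoforms are understated. P-values were two-sided and adjusted by the Benjamini-Hochberg method over all isoforms (threshold 0.05). Genes were the sum of their isoforms in the same fit. DESeq2 1.42.0 and edgeR 4.0.16, both run on recovered reads, other filters, pseudocounts, scalings and thresholds, and leaving out each library were the alternatives. Parents were assigned by blastn 2.17.0 against GENCODE M21 coding transcripts (at least 50% of the pseudogene aligned), and by symbol for -ps names. Replicates differed by more than sampling noise (chi-square of 11.3 to 45.6 per isoform), so each counted as 1 sample. Calculations used Python 3.11.15 and pandas 2.3.3, and the tests were checked on simulated data.

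The members and lists were chosen with earlier results of these data known. Named members were the 12 with the highest mean, the 10 largest rises and falls among called members that averaged 50 or more without overlap between conditions (only 7 rises qualified), the 10 most abundant -ps isoforms with a measured parent, and all tested copies of mitochondrial DNA.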

Additional observations from a re-analysis of the deposited data

Results flagged for a closer look

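In each group of 4 libraries, the gap between the most extreme library and its neighbour was divided by the range of the group, and 11 of 186 groups tested had a ratio above the critical value of Dixon's test. Chance flags about 1 in 20 groups.

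Wild-type replicate 1 was the library that stood apart in the wild-type group for Rps6-ps4 (ratio 0.967), Rpsa-ps10 (0.961), Rps23-ps1 (0.951) and Rpl31-ps8 (0.844), and for the median of the processed class (0.839) and of its isoforms without a unique window (0.867), in each case as the highest. In siL-DHX15-LEC, Pgam1-ps2 stood apart through replicate 2 (ratio 0.951, 1691 normalized counts against 1346 to 1363), and Gm28439 through the same replicate, the one library of its condition above 0 (ratio 1). Among the parent genes, Rpl10a stood apart in wild-type LEC through replicate 2 (ratio 0.870, 72299.5 normalized counts, the lowest), and Rps23 and Rps6 in siL-DHX15-LEC through replicate 4 (ratios 0.839 and 0.850, both the lowest).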

How the results depend on the processing

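No paired analysis was possible because the labels give the conditions no shared replicate numbers. Calls of pseudogene isoforms, 34 as reported, were 71 with DESeq2, 52 after rescaling to equal totals, 9 among members with at least 50% unique windows, 155 of 1170 when isoforms were summed per gene (23 higher, 132 lower, 13.2% against 33.2% of all genes), 2 at an adjusted p of 0.01 and 1 at 0.001, where 0.287% of all isoforms passed, and 11 to 31 with a library left out. For the processed class they were 62, 44, 1 and 0 with DESeq2, equal totals, 0.01 and 0.001, and 8 to 26 with a library left out. For the unprocessed class they were 4 with DESeq2, with a mean of at least 50, with no filter and with equal totals, 1 at 0.01 and 1 at 0.001. For the -ps isoforms they were 16 with DESeq2, 1 without the trend, 11 with equal totals, 0 at 0.01, 0 at 0.001, and 0 to 4 with a library left out. Of the parents of -ps isoforms, 16 passed 0.001. The share of all isoforms called shifted too, to 16.1% with DESeq2, 10.5% with equal totals and 5.83% to 11.8% with a library left out, against 10.4% as reported. The cause of these shifts was not tested.

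The share of pseudogenes was 0.208% in siL-DHX15-LEC and 0.239% in wild-type LEC without copies of mitochondrial DNA, and 0.998% in wild-type LEC when mitochondrial genes and Gm42418 were left out of the total. Members that reversed were not called. Equal totals gave log2 fold changes of -0.011 for Gm28661, -0.048 for Gm28437, -0.014 for Gm15500, -0.00024 for Gm7536 and -0.048 for Gm13340, which was -0.0034 in DESeq2 and -0.0067 in edgeR. With a library left out, 5830417I10Rik ran from -0.020 to 0.0025, Gm10222 from -0.011 to 0.24, Gm13340 from -0.21 to 0.18, Gm28437 from -0.057 to 0.067, Gm28661 from -0.016 to 0.11, Gm7336 from -0.096 to 0.049, Rps23-ps1 from -0.17 to 0.048 and Rps6-ps4 from -0.23 to 0.024. The median over all members stayed negative under every alternative run, from -0.28 with equal totals to -0.12 without wild-type replicate 1.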
